A study of Mus musculus with 10 samples.

Results

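The immediate early response genes described here were 10 listed genes, *Fos*, *Fosb*, *Jun*, *Junb*, *Egr1*, *Egr2*, *Atf3*, *Nr4a1*, *Ier2* and *Dusp1*. They were chosen by name and not by a threshold on their values, but with earlier results of these data known. Their symbols were matched to Ensembl gene identifiers, and they made up 10 of the 46983 genes counted. All 10 were among the 15610 genes that passed the filter on low counts. The mammary glands came from virgin female C57BL/6 mice at post-natal day (PND) 130. The control group (CFA) had been fed a diet with 1 mg folic acid (FA) per kg, and the high FA group (HFA) one with 5 mg FA per kg, for 4 weeks. Both groups were then fed the same maintenance diet for 4 weeks and were fasted before tissue collection. The right thoracic mammary fat pads were snap-frozen whole, and each group had 5 libraries, 1 per mouse. The whole fat pad was sequenced, so that fewer cells of a type and less RNA per cell cannot be told apart in any value below.

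Immediate early genes are switched on from a resting state without new protein synthesis, through transcription factors that are already present in the cell. Growth factors, stress kinases, calcium and cyclic AMP all act on them, and tissue collection itself can induce them, which is why their levels are often read as a record of handling and activation. Their transcripts are short-lived. *Fos*, *Fosb*, *Jun*, *Junb* and *Atf3* encode basic leucine zipper proteins that pair to form AP-1 and related complexes on DNA. *Egr1* and *Egr2* encode zinc finger transcription factors, *Nr4a1* an orphan nuclear receptor and *Ier2* a small nuclear protein. *Dusp1* encodes a phosphatase that switches off the MAP kinases upstream of the other genes.

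The promoters of *Fos*, *Jun*, *Junb*, *Nr4a1* and *Dusp1* are printed here as examples, since these genes take part in likenesses and contrasts between libraries described below. *Ier2*, *Egr1* and *Egr2* also take part in them and are not printed. RefSeq promoters were listed for 8 of the 10 genes, on GRCm38.p6. Each line gives the 250 bases before the transcription start of the RefSeq entry, 5′ to 3′ on the strand of the gene. For *Nr4a1* and *Dusp1* this window lies inside the gene span given below, which came from GENCODE and is wider. Capitals mark TGACG, the core of the cAMP response element bound by CREB and ATF proteins, on either strand (CGTCA on the opposite one).
Fos, chr12:85473640-85473889, plus strand: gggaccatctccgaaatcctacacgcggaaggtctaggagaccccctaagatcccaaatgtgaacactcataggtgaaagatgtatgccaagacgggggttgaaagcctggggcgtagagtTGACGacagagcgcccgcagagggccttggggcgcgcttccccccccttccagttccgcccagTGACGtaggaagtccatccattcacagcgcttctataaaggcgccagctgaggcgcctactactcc
Jun, chr4:95052223-95052472, minus strand: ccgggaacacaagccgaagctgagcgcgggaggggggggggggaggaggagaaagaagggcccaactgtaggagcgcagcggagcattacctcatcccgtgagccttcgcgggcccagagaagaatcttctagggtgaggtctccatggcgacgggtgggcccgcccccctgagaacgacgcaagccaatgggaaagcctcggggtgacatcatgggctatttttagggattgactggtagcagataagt
Junb, chr8:84978749-84978998, minus strand: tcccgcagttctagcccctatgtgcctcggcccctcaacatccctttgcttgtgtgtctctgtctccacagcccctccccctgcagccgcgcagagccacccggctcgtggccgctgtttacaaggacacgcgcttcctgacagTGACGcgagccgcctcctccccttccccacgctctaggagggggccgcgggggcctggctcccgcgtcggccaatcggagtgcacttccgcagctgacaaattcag
Nr4a1, chr15:101266596-101266845, plus strand: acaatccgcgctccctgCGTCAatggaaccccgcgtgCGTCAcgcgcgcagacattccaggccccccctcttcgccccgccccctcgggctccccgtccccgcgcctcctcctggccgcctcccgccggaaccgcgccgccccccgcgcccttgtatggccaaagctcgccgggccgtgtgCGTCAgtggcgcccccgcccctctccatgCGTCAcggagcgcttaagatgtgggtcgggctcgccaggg
Dusp1, chr17:26508473-26508722, minus strand: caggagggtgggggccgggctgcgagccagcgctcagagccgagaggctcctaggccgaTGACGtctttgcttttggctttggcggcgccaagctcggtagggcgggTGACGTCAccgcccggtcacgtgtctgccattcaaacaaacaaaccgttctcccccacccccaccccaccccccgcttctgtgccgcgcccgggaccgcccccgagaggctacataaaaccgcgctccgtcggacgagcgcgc
In *Fos* the core began 129 and 66 bases before the start, and in *Junb* 106 bases before it. *Nr4a1* held it 4 times, all on the opposite strand, from 233 to 40 bases before the start. *Dusp1* held it 3 times, of which the matches at 143 and 140 bases overlap to form the full palindrome TGACGTCA. The *Jun* promoter held no match within these 250 bases. All motifs were searched on both strands. Over the listed promoters, 1 per gene except for *Egr2* with 5, 7 of 8 genes held the core in at least 1, against 17.77% of 32851 mouse promoters of the same length. The full palindrome was found in *Dusp1* alone of these 8 genes and in 1.546% of all promoters. Among the same 8 genes the CArG box, to which serum response factor binds, was matched in *Egr2* alone (1.467% of all promoters), and the letters TATAAA in *Fos* alone (12.37%). These matches describe the letters of the window and were not tested as sites.

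The libraries held from 7672199 to 14829291 counts on genes. The 10 members together took from 0.0169% of these in the HFA library T2314 to 0.0445% in the CFA library T1234. No pair among the 45 pairs of libraries held the same counts. The HFA library T2334 stood apart, with a median correlation with the other libraries of 0.798 against at least 0.918 for each of the others. Summed markers of B cells (6 genes) ran from 3.32 to 4.67 CPM (counts scaled to library size) in 7 libraries, but were 280 CPM in T1234, 738 CPM in T1334 and 2183 CPM in T2334. Summed markers of T cells (7 genes) ran from 7.41 to 20.0 CPM in those 7 libraries, and were 174, 417 and 993 CPM in the same 3. Summed skeletal muscle markers (5 genes) were 635 CPM in T2334 and ran from 6117 to 49639 CPM in the other 9 libraries. Adipocyte, luminal and basal epithelial markers were detected in every library. The first of the 4 digits in a library title gives the diet. The second is 2 in 2 CFA and 3 HFA libraries and 3 in 3 CFA and 2 HFA libraries, and its meaning is not given in the sources used here.

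CPM values below are scaled by TMM and compare a gene between libraries. They are listed in the order T1224, T1234, T1314, T1324 and T1334 for CFA, and T2214, T2224, T2234, T2314 and T2334 for HFA. Log2 fold changes are HFA minus CFA from edgeR's quasi-likelihood test, each with its standard error (SE), and p-values were adjusted by Benjamini-Hochberg over 15610 genes. At an adjusted p below 0.05, 0 of the 10 immediate early genes differed between diets, and 0 of all genes passed, a background of 0%. *Nr4a1* alone had an unadjusted p below 0.05, which is 1 of 10 members against 7.36% of all genes. By the likelihood ratio test, DESeq2 and limma voom 0 members passed the adjusted threshold as well, and by limma voom with quality weights 1 passed, again *Nr4a1*. In each of the 10 genes the CFA and HFA ranges overlapped, and over all genes 0.993% had ranges that did not. In the HFA group 7 members were lower and 3 higher, against 40.0% of all genes that were lower. Under upper-quartile scaling 8 members and 50.4% of all genes were lower, with *Atf3* at −0.036. The median log2 fold change was −0.28 over the members and 0.064 over all genes tested.

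**Figure D1:**
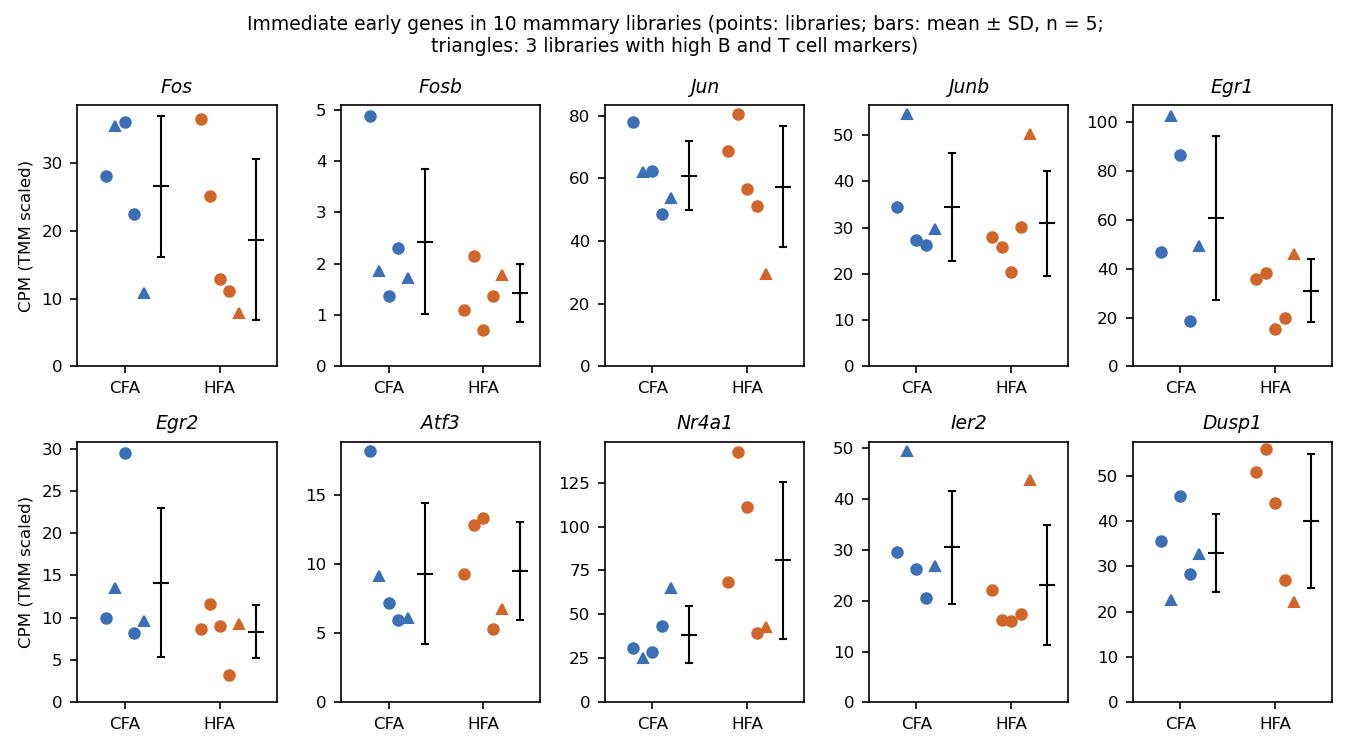
Each panel plots 1 immediate early gene, with the CPM of every library (points) by diet and the mean ± SD of 5 libraries (bars). Triangles mark T1234, T1334 and T2334, the libraries with high B and T cell markers. The 2 diets overlap in all 10 panels, and single libraries stand above the rest of their group for *Fosb*, *Junb*, *Egr2*, *Atf3* and *Ier2*.

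Among the AP-1 subunits, *Fos* (chr12:85473890-85477273, plus strand, GRCm38) encodes a subunit that needs a Jun protein as partner to bind DNA. It was at 28.2, 35.4, 36.0, 22.5 and 10.8 CPM in the CFA libraries, and at 36.5, 25.1, 12.9, 11.2 and 7.96 CPM in the HFA libraries. The highest library of all was in HFA and 4 of the 5 HFA libraries lay below the CFA median. The group means were 26.6 ± 10.4 CPM (CFA) and 18.7 ± 11.9 CPM (HFA; SD, n = 5), for a log2 fold change of −0.51 (SE 0.45, adjusted p = 0.806). It was −0.89 without T2214 and −0.34 without T2334. *Fosb* (chr7:19302696-19310051, minus strand), a close relative of *Fos*, was the least abundant member, with 5 to 71 counts per library. Its values were 4.88, 1.86, 1.37, 2.31 and 1.72 CPM in CFA, and 1.11, 2.16, 0.71, 1.37 and 1.78 CPM in HFA. T1224 lay far above every other library, and the remaining CFA libraries overlapped the HFA group. The log2 fold change was −0.74 (SE 0.41, adjusted p = 0.699), and −0.37 without T1224.

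*Jun* (chr4:95049034-95052222, minus strand) encodes the main partner of *Fos*, and its gene overlaps the antisense gene *Junos*. It was at 78.0, 62.0, 62.3, 48.6 and 53.8 CPM in CFA, and at 68.9, 80.7, 56.6, 51.1 and 29.7 CPM in HFA. T2334 held the lowest value, and the other 9 libraries ran from 48.6 to 80.7 CPM. The diet means lay close together, at 60.9 ± 11.1 CPM for CFA and 57.4 ± 19.3 CPM for HFA. Their log2 fold change was −0.087 (SE 0.24, adjusted p = 0.939) and became 0.038 without T2334 and −0.24 without T2224. *Junb* (chr8:84974484-84978718, minus strand, overlapped by *Prdx2* on the plus strand) encodes a Jun protein that can oppose *Jun* at some targets. It was at 34.4, 54.6, 27.2, 26.3 and 29.6 CPM in CFA, and at 27.9, 25.9, 20.4, 30.2 and 50.2 CPM in HFA. One library of each diet, T1234 and T2334, lay far above the others, and the remaining 8 ran from 20.4 to 34.4 CPM. The log2 fold change was −0.15 (SE 0.27, adjusted p = 0.908), which turned to 0.019 without T1234 and was −0.44 without T2334.

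*Atf3* (chr1:191170296-191218039, minus strand, overlapped by *Gm24748* on the plus strand) encodes a stress-induced factor that represses many of the genes it binds, with or without a Jun partner. It was at 18.1, 9.10, 7.15, 5.92 and 6.12 CPM in CFA, and at 9.30, 12.8, 13.3, 5.30 and 6.75 CPM in HFA. The means of 9.29 ± 5.10 and 9.49 ± 3.56 CPM differed by a log2 value of 0.027 (SE 0.37, adjusted p = 0.989), and T1224 was the highest library. Without T1224 the difference was 0.38, and without T2234 it was −0.12.

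*Egr1*, on chromosome 18, encodes a zinc finger factor that serum and growth factors induce within a short time. It was at 46.8, 103, 86.5, 18.6 and 49.5 CPM in CFA, and at 35.9, 38.2, 15.3, 20.0 and 46.1 CPM in HFA. All 5 HFA libraries lay below the CFA median, but the CFA library T1324 lay below 4 of them. Mean levels were 60.8 ± 33.6 CPM for CFA and 31.1 ± 12.9 CPM for HFA, and the log2 fold change was −0.96 (SE 0.45, unadjusted p = 0.0548, adjusted p = 0.671). The difference kept its sign with any 1 library left out, from −1.19 without T1324 to −0.74 without T1234. *Egr2* (chr10:67535475-67542188, plus strand), best known for its part in myelination and lymphocyte restraint, was at 9.96, 13.5, 29.5, 8.16 and 9.63 CPM in CFA, and at 8.64, 11.6, 9.08, 3.20 and 9.23 CPM in HFA. T1314 held the highest value and T2314 the lowest, and the other 8 libraries lay between 8.16 and 13.5 CPM. The log2 fold change was −0.76 (SE 0.42, adjusted p = 0.699), and −0.35 without T1314.

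*Nr4a1* (chr15:101254269-101274795, plus strand) encodes a nuclear receptor with no known ligand that hormones, cyclic AMP and antigen receptors induce. It was at 30.8, 25.2, 28.7, 43.3 and 65.0 CPM in CFA, and at 68.4, 142, 111, 39.7 and 42.7 CPM in HFA. All 5 HFA libraries lay above the CFA median, and T2214, T2224 and T2234 lay above every CFA library, while T2314 and T2334 fell within the CFA range. Mean levels were 38.6 ± 16.3 CPM for CFA and 80.8 ± 44.7 CPM for HFA, and the fitted ratio was 2.09-fold (log2 1.06, SE 0.40). The unadjusted p was 0.0232 and the adjusted p 0.655, and an exact permutation test of log2 CPM over all 252 arrangements of diets gave a two-sided p of 0.0714. The smallest p that these arrangements allow is 0.00794. With 1 library left out the difference ran from 0.76 without T2224 to 1.34 without T1334. *Nr4a1* had r = 0.602 with red blood cell markers over 10 libraries and 0.529 with macrophage markers, the latter 0.239 without T2224. With the diet means removed, r was 0.280 with red blood cell markers and 0.603 with macrophage markers. Summed red blood cell markers (5 genes) ran from 81.7 to 122 CPM for CFA and from 97.2 to 222 CPM for HFA. All 6 macrophage markers were highest in T2224, and their summed level ran from 261 to 388 CPM in CFA and from 105 to 808 CPM in HFA. With the mean of these markers as a covariate, added after the values were seen, the *Nr4a1* difference was 0.83 (unadjusted p = 0.0405, adjusted p = 0.571). None of these markers was at 0 in all libraries, and the part of either cell type in the *Nr4a1* values was not tested further.

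*Ier2* (chr8:84661331-84662852, minus strand) was at 29.6, 49.4, 26.2, 20.5 and 26.7 CPM in CFA, and at 22.0, 16.1, 16.0, 17.3 and 43.7 CPM in HFA. As for *Junb*, T1234 and T2334 were the highest libraries. The log2 fold change was −0.40 (SE 0.33, adjusted p = 0.794), −0.81 without T2334 and −0.21 without T1234. *Dusp1* (chr17:26505590-26562128, minus strand, overlapped by *Ergic1* on the plus strand) was at 35.6, 22.5, 45.6, 28.3 and 32.7 CPM in CFA, and at 50.8, 55.8, 44.0, 26.9 and 22.2 CPM in HFA. T2214 and T2224 lay above every CFA library, and the lowest libraries were T1234 in CFA and T2334 in HFA, where *Junb* and *Ier2* were highest. The log2 fold change was 0.28 (SE 0.28, adjusted p = 0.836), and 0.12 without T1234 and 0.13 without T2224. For all members but *Nr4a1* the exact permutation p ran from 0.127 to 0.841.

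**Figure D2:**
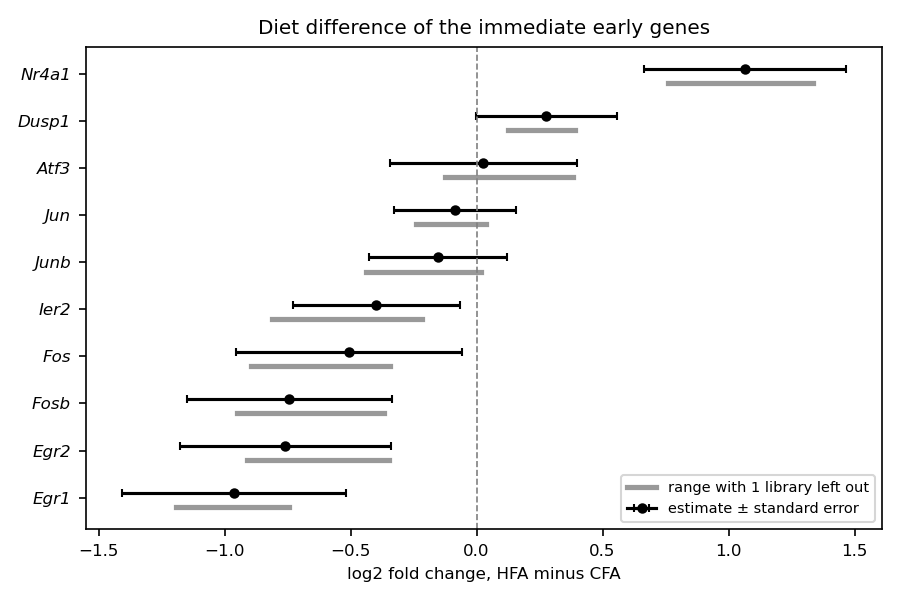
The horizontal axis is the log2 fold change (HFA minus CFA) of each gene, with points and black bars for the estimate ± SE over 10 libraries and grey bars for the range with 1 library left out. *Nr4a1* lies at 1.06 and *Egr1* at −0.96, and the grey bars of *Jun*, *Junb* and *Atf3* cross 0.

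The members varied widely between mice. Over all 10 libraries of both diets, the ratio of the highest to the lowest was 9.22 for *Egr2*, 6.87 for *Fosb*, 6.69 for *Egr1*, 5.64 for *Nr4a1* and 4.59 for *Fos*, and between 2.51 and 3.42 for the others. In 6 of 10 members the log2 fold change was smaller than the SD of log2 CPM within diets. That SD placed each member above the median of all 15610 genes, from percentile 56.4 for *Jun* to 85.3 for *Egr1*, with a median percentile of 74.4. Among the 1000 genes nearest in level, 9 of 10 members lay above the median, and *Egr1* (percentile 92.0), *Fos* (90.5) and *Nr4a1* (89.4) ranked highest. *Fosb*, with its few counts, lay at percentile 47.4. The biological coefficient of variation exceeded the common value of 0.409 in 6 members. For this count, and for that of differences below the SD, the share of all genes was not taken. Neither count is read as a result about the members. Without T2334 the median percentile among all genes was 85.2.

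Levels of different genes were compared per length, as TPM, in which counts are divided by the exon length of each gene. The order was *Jun* (mean 51.7 TPM), *Ier2* (49.9), *Nr4a1* (45.7), *Junb* (39.8), *Dusp1* (30.3), *Egr1* (29.6), *Fos* (27.5), *Atf3* (12.3), *Egr2* (9.48) and *Fosb* (0.881). The first 7 were not separated from their neighbours, since each of the first 6 lay above the next in 4 to 7 of the 10 libraries. *Fos* lay above *Atf3* in 9 libraries, *Atf3* above *Egr2* in 9 and *Egr2* above *Fosb* in 10.

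The members did not rise and fall together across mice. Over the 45 pairs of members the median Pearson r of log2 CPM in 10 libraries was 0.219, with 30 pairs positive and 15 negative. All pairs share the same libraries and scaling, and the values describe these libraries without a test. One cluster held *Junb*, *Ier2* and *Egr1*, with r = 0.917 for *Junb* with *Ier2*, 0.747 for *Egr1* with *Ier2* and 0.627 for *Junb* with *Egr1*. *Egr1* was also like *Egr2* (0.695). A further cluster joined *Fos* with *Jun* (0.733), *Jun* with *Dusp1* (0.683) and with *Atf3* (0.630), and *Dusp1* with *Nr4a1* (0.625). The most negative r values joined members of the 2 clusters, at −0.742 for *Junb* with *Dusp1*, −0.675 for *Nr4a1* with *Ier2*, −0.644 for *Ier2* with *Dusp1* and −0.621 for *Junb* with *Nr4a1*, while other such pairs were positive, as *Fos* with *Egr1* (0.443). With the diet means removed the median r was 0.149, again with 30 positive pairs. With the diet means kept, *Nr4a1* was the one member that ran against the mean of the other members, with r = −0.301. *Fos* followed that mean most closely (0.621). The diet difference of each gene enters these 2 values, and r with the other members was not taken with the diet means removed.

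**Figure D3:**
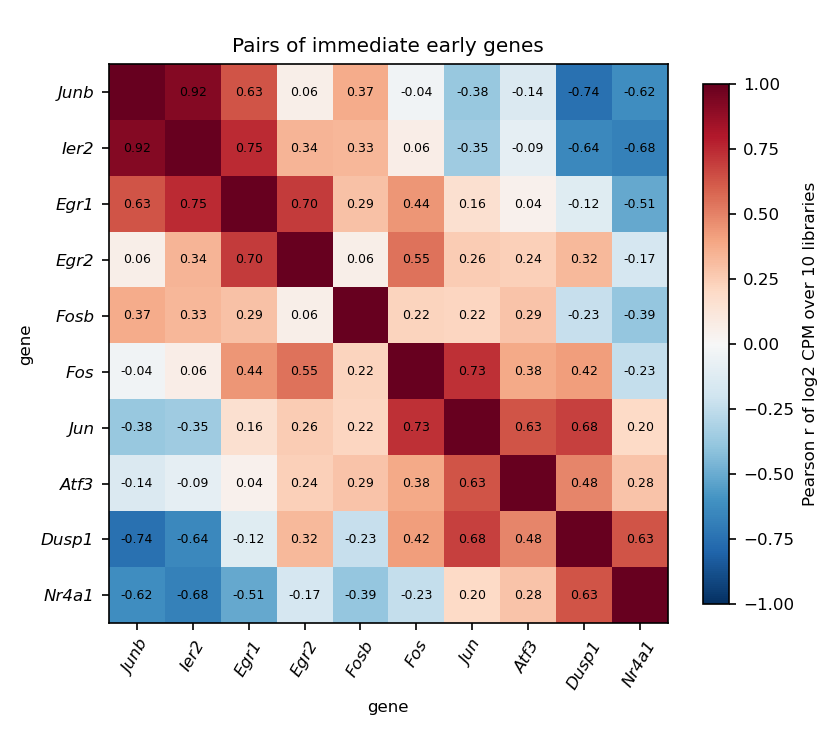
Cells give Pearson r of log2 CPM over 10 libraries for each pair of immediate early genes, from blue (negative) to red (positive). *Junb*, *Ier2* and *Egr1* form a red block at the top left, *Fos*, *Jun*, *Atf3* and *Dusp1* a paler one toward the bottom right, and the cells joining *Junb* or *Ier2* to *Dusp1* or *Nr4a1* are blue.

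Cell type markers moved with these clusters. *Junb* and *Ier2* were highest in T1234 and T2334, in which all 6 B cell and all 7 T cell markers exceeded their levels in the 7 libraries without such a signal. The third library with high lymphoid markers, T1334, had *Junb* at 29.6 CPM and *Ier2* at 26.7 CPM, inside the range of those 7 libraries. T1234 and T2334 were also the libraries with the lowest summed skeletal muscle markers. Over 10 libraries *Junb* had r = −0.803 with the mean log2 level of the muscle markers and 0.712 with that of the B cell markers, and *Ier2* had −0.817 and 0.743. Without the 3 libraries, r with the muscle markers was −0.419 for *Junb* and −0.891 for *Ier2* (7 libraries). With the B cell markers it was 0.142 and 0.446, and with the T cell markers 0.247 and 0.756. In the same 7 libraries r of *Junb* with *Ier2* was 0.666. None of the B cell, T cell or muscle markers was at 0 in all of the 7 libraries, and the part of these cells in the *Junb* and *Ier2* values was not tested.

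*Fos* and *Jun* moved instead with connective tissue and epithelial markers. *Fos* had r = 0.867 with the mean log2 level of the 5 basal epithelial markers and 0.841 with that of the 5 fibroblast markers, and *Jun* had 0.817 and 0.794. The summed fibroblast level ran from 1562 to 6620 CPM for CFA and from 581 to 5106 CPM for HFA. They were lowest in T2334, T2314 and T1334, the same 3 libraries in which *Fos* was lowest. Without T1234, T1334 and T2334 the values were 0.752 and 0.701 for *Fos*, and 0.449 and 0.528 for *Jun*. All basal epithelial markers were lowest in T2334. These are likenesses over libraries that share scaling and differ in cell makeup, and the part of these cells was not tested.

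**Figure D4:**
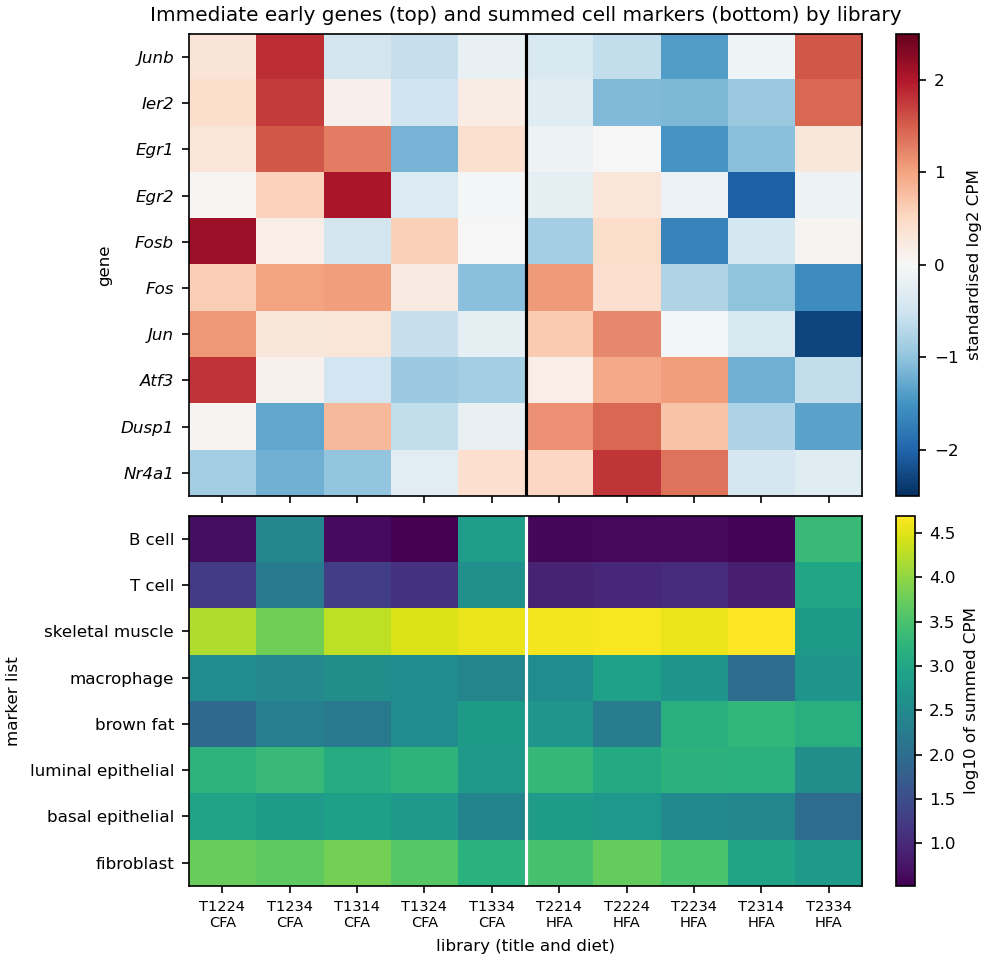
Columns are the 10 libraries by diet. The upper panel colours each immediate early gene by log2 CPM standardised over libraries (blue low, red high), and the lower panel colours the summed CPM of each marker list on a log10 scale. T1234 and T2334 are red for *Junb* and *Ier2* and bright for B and T cell markers, T2334 is blue for *Jun* and dark for skeletal muscle, and T2314 is blue or pale for every immediate early gene.

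As a summary of each library, log2 CPM was standardised per gene and averaged over the 10 members. The average was highest in the CFA library T1224 (0.593) and lowest in the HFA library T2314 (−0.836). T2314 was among the lowest 3 libraries for 7 of 10 members and among the highest 3 for 0. Mitochondrial genes took 12.8% of the counts on genes in T2314, and from 6.02% to 9.31% in the other libraries. The part of this difference in the member values was not tested. No library was uniformly high. T1234 was highest for *Junb*, *Egr1* and *Ier2* but lowest for *Nr4a1*, and T2224 was highest for *Jun*, *Nr4a1* and *Dusp1*. T2234 was lowest for *Fosb*, *Junb*, *Egr1* and *Ier2* and the second highest for *Nr4a1* and *Atf3*. Of the 13 marker lists, that of brown fat (5 genes) ran most strongly against this average, with Pearson r = −0.881 and Spearman rho = −0.867 over 10 libraries. The members differed in this. Pearson r with brown fat markers was −0.74 for *Fosb*, −0.71 for *Fos*, −0.66 for *Jun*, −0.57 for *Atf3*, −0.56 for *Egr2* and −0.52 for *Egr1*. It was −0.31 for *Dusp1*, −0.19 for *Ier2*, −0.11 for *Junb* and 0.18 for *Nr4a1*. Summed brown fat markers were lowest in T1224 (87.2 CPM) and highest in T2314 (1939 CPM), and ran from 87.2 to 637 CPM in CFA and from 187 to 1939 CPM in HFA. With any 1 library left out r of the average with brown fat markers stayed between −0.932 and −0.849. It was −0.867 with diet means removed, and −0.890 without the 3 libraries with high lymphoid markers. For fibroblast markers r with the average was 0.681, and for macrophage markers 0.584. All 5 brown fat markers were detected, and their part in the levels of the members was not tested.

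The genes whose pattern was most like the average of the members, among all others tested, were *Klhl29* (r = 0.912), *6030443J06Rik* (0.905), *Tubb2a* (0.896), *Unc13a* (0.891), *S100a10* (0.883), *Cdh11* (0.881), *C1qtnf6* (0.878), *Rnd3* (0.874), *Fosl2* (0.868) and *D7Ertd443e* (0.867), over 10 libraries. *Fosl2* encodes a Fos family subunit of AP-1 and was the only one of these 10 on a list of related genes. It was at 54.1, 45.1, 41.1, 32.1 and 24.7 CPM in CFA and at 44.3, 49.8, 35.8, 24.4 and 25.5 CPM in HFA. The lowest values of *Fosl2*, like those of *Fos*, were in T1334, T2314 and T2334.

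The second title digit cut across the diets and was compared with diet as a term. At an adjusted p below 0.05, 0 members and 0% of all genes differed between the digits by edgeR's quasi-likelihood test. Without adjustment 3 members had a p below 0.05, *Atf3*, *Jun* and *Fos*, against 5.69% of all genes. The log2 difference, digit 3 minus digit 2, was −1.03 for *Atf3* (SE 0.22), −0.92 for *Fos* (SE 0.40) and −0.56 for *Jun* (SE 0.19), each with an adjusted p of 0.681. All 5 digit 3 libraries had *Atf3* at 5.30 to 7.15 CPM and all 5 digit 2 libraries at 9.10 to 18.1 CPM. *Atf3* was the only member whose values did not overlap between the digits, against 0.653% of all genes.

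The diet difference itself was compared between the digits by the interaction of diet and digit. By this test 0 members and 0% of all genes passed the adjusted threshold, and 4 members had an unadjusted p below 0.05 against 8.46% of all genes. These were *Nr4a1*, *Junb*, *Dusp1* and *Ier2*, each with an adjusted p of 0.568. In digit 2 libraries *Nr4a1* was at 30.8 and 25.2 CPM in CFA against 68.4, 142 and 111 CPM in HFA, and in digit 3 libraries at 28.7, 43.3 and 65.0 CPM in CFA against 39.7 and 42.7 CPM in HFA. The diets were apart in the former and overlapped in the latter, an interaction of −2.08 (SE 0.55). *Dusp1* was higher in all 3 HFA than in both CFA libraries of digit 2, and lower in both HFA than in all 3 CFA libraries of digit 3, an interaction of −1.32 (SE 0.38). *Junb* went the other way, lower in every HFA library of digit 2 and higher in both HFA libraries of digit 3 (interaction 1.38, SE 0.38). For *Ier2* the interaction was 1.45 (SE 0.54), and 0.24 without the 3 libraries with high lymphoid markers. Without those libraries it was −1.69 for *Nr4a1*, −0.99 for *Dusp1* and 0.61 for *Junb*, but CFA of digit 2 and HFA of digit 3 then held 1 library each, which was assumed to vary like the other libraries.

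**Figure D5:**
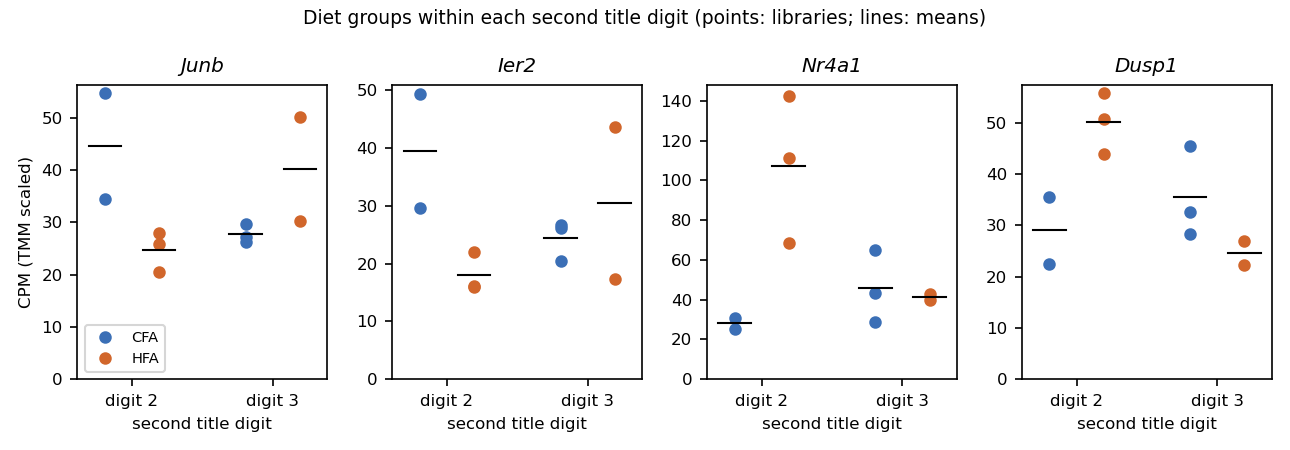
CPM of *Junb*, *Ier2*, *Nr4a1* and *Dusp1* in CFA and HFA libraries, split by the second digit of the library title (points: libraries, lines: means of 2 or 3 libraries). HFA lies above CFA for *Nr4a1* and *Dusp1* in digit 2 and not in digit 3, and below CFA for *Junb* and *Ier2* in digit 2.

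Genes that act with the immediate early genes were read from 9 lists of 100 genes, of which 96 were tested. By edgeR's quasi-likelihood test 0 passed the adjusted threshold and 9 had an unadjusted p below 0.05, 6 higher and 3 lower in HFA, against 7.36% of all genes. By the likelihood ratio test and by DESeq2 2 passed, against 33 and 60 of all genes. In all, 59 were higher and 37 lower in HFA, where 9372 of all 15610 genes were higher. Only *Gadd45g* and *Cdkn1a* had diet ranges that did not overlap, against 0.993% of all genes, and these also had the smallest p.

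Of 8 AP-1 relatives 6 were higher, with a median log2 fold change of 0.13. *Mafk*, a small Maf protein that pairs with other leucine zipper factors, was the lowest in p, with a log2 fold change of 0.47 (SE 0.15, adjusted p = 0.655). *Jund*, the most abundant, had one of 0.19 (SE 0.22). Of 5 tested EGR and NR4A relatives 2 were higher and 3 lower. Both remaining NR4A receptors had positive values, 0.59 for *Nr4a2* (SE 0.29, adjusted p = 0.678) and 1.44 for *Nr4a3* (SE 0.87, adjusted p = 0.720), the latter named after its values were seen. *Nr4a3* was at 1.58, 5.37, 0.650, 2.31 and 8.73 CPM in CFA and at 0.554, 10.9, 15.2, 2.93 and 20.8 CPM in HFA, with overlapping ranges. *Nab1*, a co-repressor of EGR proteins and the most abundant of this list, had a log2 fold change of −0.062 (SE 0.13).

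Of 27 further immediate early genes tested 15 were higher and 12 lower, with a median of 0.020. *Gadd45g*, a growth arrest and stress gene, was at 13.4, 15.7, 9.49, 10.7 and 16.6 CPM in CFA and at 44.9, 38.6, 40.0, 38.5 and 21.0 CPM in HFA. Every HFA library lay above every CFA library, with a log2 fold change of 1.48 (SE 0.23), an unadjusted p of 6.74e-05 and an adjusted p of 0.376. The 2 genes of this list that were lower at an unadjusted p below 0.05 were *Ier5l* (−0.73, SE 0.25) and *Myc* (−0.73, SE 0.30), with adjusted p of 0.655 and 0.656. *Rhob*, the most abundant, had a log2 fold change of −0.36 (SE 0.17, adjusted p = 0.672).

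Of the genes that end the response, 4 of 5 mRNA decay factors were higher, with a median of 0.39. *Zfp36l1*, which binds AU-rich elements of short-lived mRNAs, had −0.24 (SE 0.16), and *Btg1*, the most abundant, 0.39 (SE 0.59). Of 8 other MAP kinase phosphatases 3 were higher and 5 lower, with a median of −0.10, and *Dusp3* had both the lowest p and the highest level (0.52, SE 0.22, adjusted p = 0.661). Of 15 upstream kinases and factors 12 were higher, all with small values (from −0.20 to 0.28). *Mapk14*, which encodes the stress kinase p38 alpha, had 0.25 (SE 0.12, adjusted p = 0.670).

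Heat shock genes, which respond to protein damage, were divided, 4 of 10 higher and 6 lower, with a median of −0.13. *Hsp90aa1* had −0.46 (SE 0.21, adjusted p = 0.671) and *Hspa8* −0.10 (SE 0.16). Of 9 tested inflammatory targets of NF-kappaB 4 were higher and 5 lower, with a median of −0.019. *Cxcl1*, a chemokine for neutrophils, was low in all libraries (means of 1.25 ± 0.613 CPM for CFA and 0.574 ± 0.346 CPM for HFA) and had a log2 fold change of −1.04 (SE 0.45, adjusted p = 0.667), and *Nfkbia*, the most abundant, had −0.096 (SE 0.40).

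Genes known to respond to glucocorticoids, the hormones released in stress and fasting, were all above 0, with 9 of 9 higher in HFA and a median log2 fold change of 0.69, against 0.064 for all genes. Over all genes 9372 of 15610 were higher, and this list was chosen with earlier results of these data known. The 9 were also higher under RLE and upper-quartile scaling, while 1 was lower by limma voom with quality weights and in title digit 2 alone, and 2 in title digit 3 alone. None of the 9 passed the adjusted threshold by edgeR's quasi-likelihood test and 3 had an unadjusted p below 0.05, against 7.36% of all genes. *Cdkn1a*, which encodes the cell cycle inhibitor p21 and also answers to p53, was at 14.4, 15.7, 19.1, 20.7 and 22.98 CPM in CFA and at 33.7, 46.6, 36.6, 33.0 and 37.2 CPM in HFA. Every HFA library lay above every CFA library, with a log2 fold change of 1.01 (SE 0.16), an unadjusted p of 7.70e-05 and an adjusted p of 0.376. The other two were *Zbtb16* (0.88, SE 0.31, adjusted p = 0.655) and the clock gene *Per1* (0.70, SE 0.30, adjusted p = 0.667). *Per1* was at 84.9, 73.6, 36.8, 69.4 and 71.3 CPM in CFA and at 79.0, 119.7, 184, 100.4 and 63.4 CPM in HFA, so that the ranges overlapped. *Tsc22d3*, the most abundant and a well known glucocorticoid target, had 0.67 (SE 0.38, adjusted p = 0.706). *Dusp1*, itself a glucocorticoid target as well as an immediate early gene, had the lower value of 0.28 given above. In 8 of the 13 marker lists, among them macrophage, skeletal muscle and brown fat, every marker had a higher mean in HFA too. The B and T cell lists were also among them, with their highest sums in T2334. Their median summed levels were lower in HFA (4.05 and 10.2 CPM) than in CFA (4.67 and 20.0 CPM). Summed skeletal muscle markers ran from 6117 to 37612 CPM for CFA and from 635 to 49639 CPM for HFA, and the part of these cells in the glucocorticoid genes was not tested.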

How the data were processed

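RNA from mammary fat pads was sequenced as paired reads after TruSeq library preparation, which does not mark strand. Per the labels and the study's methods, the authors aligned reads to GRCm38 with TopHat2 2.0.14 and Bowtie2 2.2.5 and counted them with HTSeq 0.6.1. The deposited files hold whole-number counts per Ensembl gene for each library, with no normalization, and the strand setting of the counting is not given in the sources used here. The authors dropped an HFA sample with poor reverse reads and a further sample by its deviation score, and neither was analysed here. Summary lines, for reads outside genes (3.43% to 5.47% of a file) and reads aligned more than once (28.8% to 33.9%), stayed out of library sizes with the other summary lines. Reads from *Jun*, *Junb*, *Atf3* and *Dusp1* and from the genes that overlap them on the other strand cannot be told apart where they overlap.

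Symbols, positions and exon lengths came from GENCODE M21. After filterByExpr and TMM scaling, the diets were compared by the quasi-likelihood test of edgeR 4.0.16 in R 4.3.3, with group as the only term and Benjamini-Hochberg adjustment. The study's model also held the cage, which is not in the labels used here. The SE was obtained from the log2 fold change and the F statistic. Log2 CPM used a prior count of 2. Alternatives were other scalings and filters, the likelihood ratio and robust tests, DESeq2 1.42.0, limma 3.58.1 (voom, with or without quality weights), title digits as a term, block or split, marker covariates and leaving out each library. The omission of the 3 libraries with high B and T cell markers and the muscle and macrophage covariates were added after the values were seen, as were the correlations with marker lists. The fits were also run on simulated counts with known changed genes, drawn without the differences in cell makeup between these libraries. That run cannot show how the fits behave where cell makeup differs. The members, gene lists and markers were chosen with earlier results of these data known. Named beside the members were the gene with the lowest p and the most abundant gene of each related list, and the 10 genes most like the members' average, except 1 gene that is not reported here. Genes past the adjusted threshold in these lists would have been named too. P-values of the diet comparison set the difference against the spread between mice within each diet. Those of the title digit and of the interaction set it against the spread left after diet and digit.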

Additional observations from a re-analysis of the deposited data

Results flagged for a closer look

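Within each diet the highest and lowest of the 5 libraries were compared with the next value, and 5 values lay apart from the rest of their group. By this measure about 1 in 20 groups stands out by chance, and 20 groups were examined. *Fosb* was 4.88 CPM in the CFA library T1224, and *Atf3* was 18.1 CPM in the same library, each well above the other 4 CFA libraries. *Junb* was 54.6 CPM in the CFA library T1234, and *Ier2* was 43.7 CPM in the HFA library T2334, both of them libraries with high B and T cell markers. *Egr2* was 29.5 CPM in the CFA library T1314, a library without such markers.

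For *Junb* and *Dusp1* the difference between diets had opposite directions in the libraries of the second title digits 2 and 3, with every HFA library on one side of every CFA library in each. The interaction of diet and digit was 1.38 for *Junb* (unadjusted p = 0.00644) and −1.32 for *Dusp1* (unadjusted p = 0.00804) by edgeR's quasi-likelihood test. Both had an adjusted p of 0.568. By the likelihood ratio test the adjusted p was 0.337 for *Junb* and 0.409 for *Dusp1*.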

How the results depend on the processing

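No member passed the adjusted threshold in 25 of 27 alternatives. With limma voom and quality weights 1 passed (*Nr4a1*, 1.34, adjusted p = 0.0388), and with the libraries of title digit 2 alone 2 passed (*Nr4a1*, 1.96, adjusted p = 0.0303, and *Ier2*, −1.09, adjusted p = 0.0446), where 1037 and 1415 of all genes passed. Over all genes 33 passed by the likelihood ratio test, 60 by DESeq2, 3 with the B and T cell covariate, 466 without the 3 libraries with high B and T cell markers and 6 without T2334, against 0 in the comparison reported above and with any other library left out. With 1 library left out, 0 members passed in each case.

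The count of members at an unadjusted p below 0.05, 1 as reported, was 2 under upper-quartile scaling, no filter, the likelihood ratio test, DESeq2, voom with quality weights, without the 3 libraries and with the macrophage covariate. It was 3 with the muscle covariate, 5 in digit 2 alone, and 0 in digit 3 alone, with the digit as a term and by the exact permutation test. With 1 library left out it ran from 0 (without T1224, T1234, T2224 or T2234) to 3 (without T2334). The share of all genes at this unadjusted threshold is given only for the comparison reported above (7.36%). Without that share for the other settings, these counts are not read as results about the members. In digit 2 alone 1415 of all genes passed even the adjusted threshold. Related genes past the adjusted threshold, 0 as reported, were 2 by the likelihood ratio test and by DESeq2, 8 with quality weights, 10 in digit 2 alone, 3 without the 3 libraries, and 0 to 1 with 1 library left out (1 without T2334). Over all genes the counts in these settings were 33, 60, 1037, 1415, 466 and, without T2334, 6. In the comparison reported above the related genes were 96 of the 15610 genes tested, and their counts rose where those of all genes did. The median percentile of the spread ran from 67.8 to 85.2 with 1 library left out. The median r over pairs ran from 0.130 to 0.292, and was 0.330 without the 3 libraries.

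*Fos*, *Fosb*, *Egr1* and *Egr2* stayed lower in HFA in all 28 alternatives each. *Jun* turned to 0.018 with quality weights, 0.00014 in digit 2 alone, 0.031 without the 3 libraries and −0.24 to 0.038 with 1 library left out. In digit 3 alone *Junb* was 0.45, *Ier2* 0.23, *Nr4a1* −0.23 and *Dusp1* −0.62, and *Junb* ran from −0.44 to 0.019 with 1 library left out. *Atf3* fell below 0 in 16 of 28 alternatives: −0.036 under upper-quartile scaling and with no filter, −0.0052 with quality weights, −0.15 with the digit as a term, −0.065 with the replicate block, −0.035 with the B and T cell covariate, −0.20 and −0.17 in digits 2 and 3 alone, −0.037 without the 3 libraries, −0.094 with the macrophage covariate, and −0.12 to 0.38 with 1 library left out (−0.028 without T1234, −0.10 without T1314, −0.097 without T1324, −0.090 without T1334 and −0.11 without T2224). The causes were not tested.

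Under the block by the last 3 title digits 0 members passed. In that fit *Fos* (−0.94) was the 1 member below an unadjusted 0.05, in place of *Nr4a1* (1.07). Pairs that share these digits had correlations of their deviations of 0.298, −0.294, 0.111 and 0.410. These 4 values are too few to show whether the digits pair the libraries. The pair at 0.410 held T1334 and T2334, both with high B and T cell markers. That at −0.294 held T1234, with high B and T cell markers, and T2234, without them. The labels name no pairing, so the digits were not taken to pair the libraries. *Fosb*, with 5 to 71 counts per library, is the member that depth limits most. The design of 5 against 5 cannot tell diet differences below the spread between mice from that spread, and cage was not modelled.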
